A study of Chlamydomonas reinhardtii with 12 samples.

Results

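The 100 genes described here were higher after high light (HL) in the phot mutant of the unicellular green alga Chlamydomonas reinhardtii while their means in the wild type (WT) hardly differed between HL and low light (LL). They were taken from a table of 17741 genes by a rule on library-scaled counts (CPM, the count of a gene divided by the total count of its library, times 1000000). A gene had to reach a mean of at least 1 CPM in both WT groups, and log2(mean CPM + 1) had to differ by less than 0.5 between WT HL and WT LL. The 5132 genes that met these criteria were ranked by the same difference, HL minus LL, in phot, and the first 100 were taken. The genes were thus selected on the light differences of both genotypes, which are given as a description without a test.

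RNA was sequenced from 4 groups of 3 biological replicates, phot HL, phot LL, WT HL and WT LL. The phot mutant lacks PHOT1 (Cre03.g199000, chromosome 3) and WT was strain CC-125. All cultures were pregrown in acetate-containing Tris-acetate-phosphate (TAP) medium and then kept without acetate in Sueoka's high salt medium (HSM). Light was set to 5 for LL cultures and raised to 300 for 60 min for HL cultures (in µmol photons per square metre and second). No complemented line was analysed here, so that other differences between the mutant line and CC-125 cannot be told apart from the loss of phototropin.

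Phototropin is a blue-light receptor kinase. Its light-sensing LOV domains bind a flavin, and light on the flavin switches on the kinase. In Chlamydomonas it is known for roles in the sexual cycle, the eyespot and the expression of photoprotection genes, so that genes which respond to light in its absence are read against the same genes in WT.

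The libraries held between 27136674 and 33906264 counts. PHOT1 had 115 to 181 counts in the 6 phot libraries and 6074 to 8263 counts in the 6 WT libraries, in accordance with their labels. The scaling factors of the trimmed mean of M-values (TMM) were 1.13 to 1.23 in phot HL, 1.09 to 1.21 in phot LL, 0.88 to 1.00 in WT HL and 0.66 to 0.86 in WT LL. WT LL library C, at 0.66, stood apart from the other 2 at 0.83 and 0.86. The 100 most abundant genes of each library took 36.4% to 38.7% of the counts in phot HL and 43.4% to 47.6% in phot LL, against 40.3% to 42.2% in WT HL and 51.9% to 59.0% in WT LL. Library composition thus moved with light and genotype, and its part in the selection below was followed by repeating the rule with other scalings. In bulk samples, fewer cells that express a gene and less RNA per cell cannot be told apart.

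The light difference in phot of the 100 selected genes lay between 1.02 and 4.82 on the scale of the rule, with a median of 1.32. Over all 5132 genes flat in WT its median was -0.09, and it was under 0.5 in either direction for 3818 (74.4%), over 1 for 108 and under -1 for 168. In terms of mean CPM, phot HL was 2.05 to 159 times phot LL (median 2.79), with 22 genes at 4-fold or more and 5 at 10-fold or more. In WT the corresponding folds were 0.598 to 1.51 (median 1.08). The median over the 100 genes was 21.1 CPM in phot HL and 7.52 CPM in phot LL, against 12.3 CPM in WT HL and 10.4 CPM in WT LL, so the lowest of the 4 medians was that of phot LL. For all 5132 genes the medians were 15.1 and 15.9 CPM for HL and LL in phot, against 12.1 and 11.2 CPM for HL and LL in WT.

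For every one of the 100 genes the 3 phot HL libraries lay above the 3 phot LL libraries. The same held for 37.8% of the 14251 genes that passed the filter on low counts, but the rule selected for it. The WT HL and WT LL libraries overlapped for 77 genes. In WT the HL libraries lay above the LL libraries for 19 genes and below them for 4. Of all tested genes 68.9% had no overlap in either direction, but the rule limited the WT difference too. Among the 5132 genes flat in WT the shares were similar to those of the 100 genes, with 20.1% above, 6.64% below and 73.2% overlapping. Replicates were tightest in phot HL, where the median coefficient of variation over the 100 genes was 9.38%, followed by phot LL with 13.2%, WT HL with 14.9% and WT LL with 18.3%.

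The gene at the top of the ranking, Cre08.g368800 on chromosome 8, had 36.2, 31.2 and 32.0 CPM in phot HL and 0.192, 0.184 and 0.25 CPM in phot LL. In WT it had 5.75, 7.01 and 6.25 CPM in HL and 5.75, 4.94 and 3.89 CPM in LL. Thus, the mutant was below all WT libraries in LL and above all of them in HL. The 159-fold ratio in phot rests on 6, 5 and 7 reads in the phot LL libraries, so that its size is known only roughly. Cre04.g213950 (chromosome 4) had the same order, with 33.5, 36.7 and 31.1 CPM in phot HL and 3.93, 2.73 and 1.82 CPM in phot LL, against 18.2, 14.2 and 17.0 CPM in WT HL and 11.6, 17.9 and 12 CPM in WT LL. Cre07.g345650 (chromosome 7) had 8.27, 8.76 and 3.57 CPM in phot HL and 0.511, 0.147 and 0.286 CPM in phot LL. The WT values were 1.49, 1.83 and 2.29 CPM in HL and 2.43, 3.00 and 3.72 CPM in LL. For this gene phot HL library C was lower than the other 2, at 3.57 CPM against 8.27 and 8.76 CPM, and all WT HL libraries lay below all WT LL libraries. It met the criterion for a flat gene in WT because the added constant of 1 CPM compresses differences at low levels, and its WT mean in HL was 0.614 times that in LL.

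**Figure D1:**
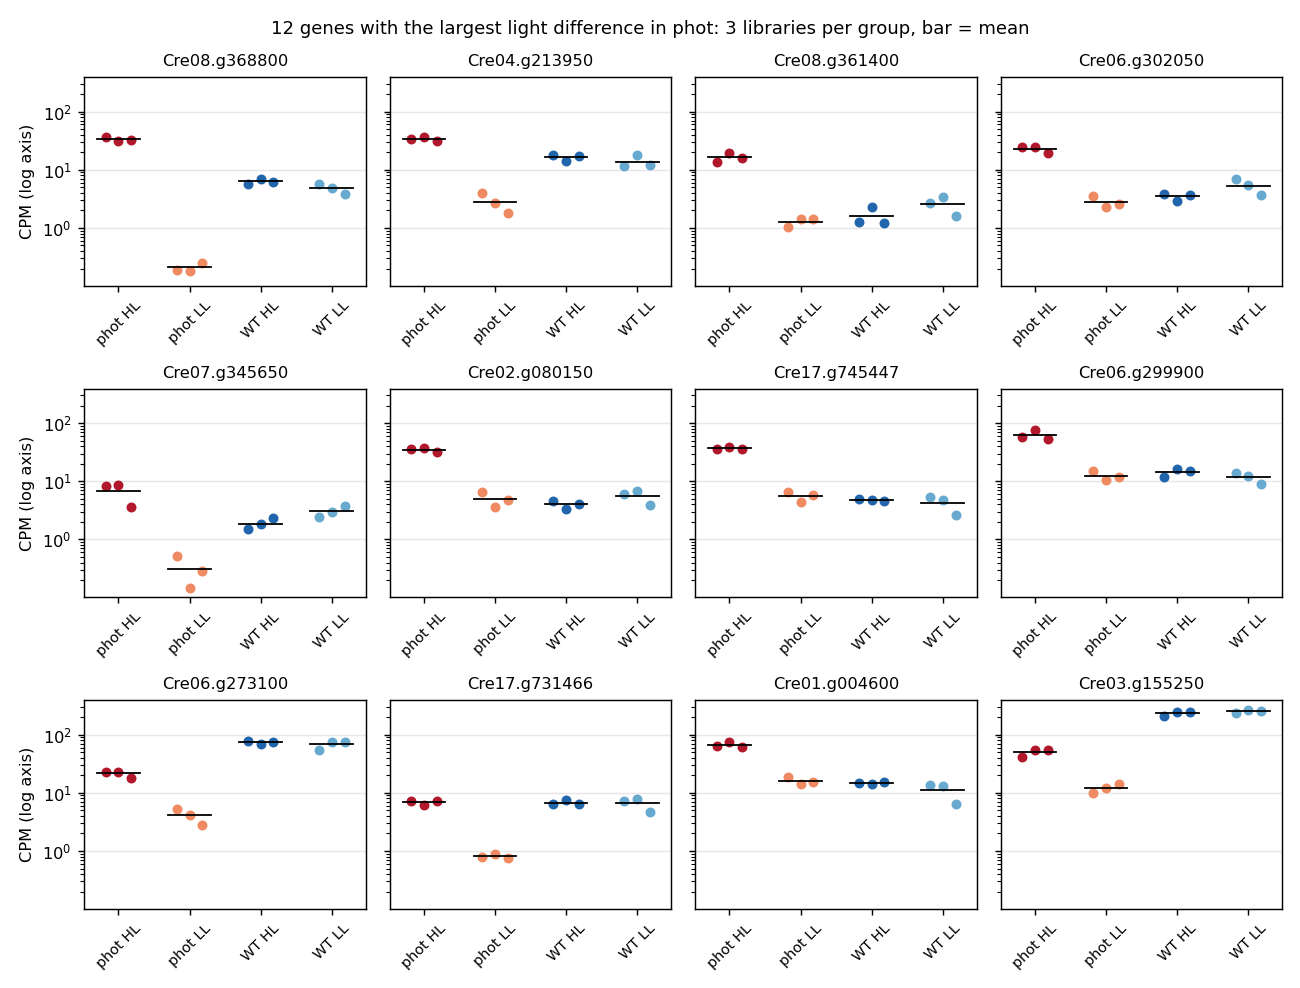
CPM (log axis) of the 12 genes with the largest light difference in phot, 1 panel per gene, with 3 libraries per group (points) and their mean (bar) for phot HL, phot LL, WT HL and WT LL. In every panel the phot HL points lie above the phot LL points, whereas phot relative to WT differs from gene to gene, from Cre08.g368800 with phot LL far below WT to Cre03.g155250 with phot below WT in both lights.

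For 6 other genes of the first 12, the phot LL mean was within 2-fold of WT LL and phot HL stood out. Cre02.g080150 (chromosome 2) had 35.9, 36.7 and 32.1 CPM in phot HL and 6.62, 3.65 and 4.75 CPM in phot LL, against 4.55, 3.38 and 4.09 CPM in WT HL and 5.97, 6.79 and 3.93 CPM in WT LL. Cre17.g745447 (chromosome 17) had 35.2, 38.9 and 35.9 CPM in phot HL and 6.55, 4.42 and 5.86 CPM in phot LL, against 4.92, 4.85 and 4.65 CPM in WT HL and 5.30, 4.81 and 2.68 CPM in WT LL. For both genes phot HL was the only group above 7 CPM, and the other 3 groups overlapped in part. Cre06.g299900 (chromosome 6) had 57.5, 75.5 and 53.2 CPM in phot HL and 15.0, 10.5 and 11.8 CPM in phot LL, against 11.7, 16.5 and 15.3 CPM in WT HL and 14.1, 12.4 and 9.0 CPM in WT LL. Cre06.g302050 (chromosome 6) had 24.8, 24.3 and 19.6 CPM in phot HL and 3.52, 2.25 and 2.54 CPM in phot LL, against 3.86, 2.93 and 3.66 CPM in WT HL and 6.81, 5.44 and 3.61 CPM in WT LL. The phot LL libraries of Cre06.g302050 lay below WT LL without overlap, those of the genes before it did not. The remaining 2 of these genes, Cre01.g004600 and Cre08.g361400, are on the study's list of transcription factors and are described with their families.

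Another 3 genes of the first 12 had phot LL well below WT LL and did not exceed WT in HL. Cre17.g731466 (chromosome 17) had 7.33, 6.08 and 7.11 CPM in phot HL and 0.799, 0.884 and 0.750 CPM in phot LL, against 6.52, 7.41 and 6.48 CPM in WT HL and 7.22, 7.97 and 4.69 CPM in WT LL. After 60 min of HL the mutant mean was 1.01 times that of WT, and the phot HL and WT HL libraries overlapped. Cre06.g273100 (chromosome 6) had 23.3, 23.2 and 18.2 CPM in phot HL and 5.27, 4.24 and 2.75 CPM in phot LL, against 78.1, 69.1 and 73.6 CPM in WT HL and 53.7, 76.0 and 74.3 CPM in WT LL. Cre03.g155250 (chromosome 3) had 41.5, 55.0 and 55.1 CPM in phot HL and 9.88, 12.1 and 14 CPM in phot LL, against 209, 245 and 244 CPM in WT HL and 240, 268 and 253 CPM in WT LL. The mutant libraries of Cre06.g273100 and Cre03.g155250 stayed below all WT libraries in both lights.

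Of the study's list of 407 transcription factors, 147 were flat in WT by the rule and 3 were among the 100 genes. This is a share similar to that of all genes, with 100 taken from 5132 flat in WT, so transcription factors were not more frequent among them. Cre08.g361400 (chromosome 8) belongs to the CPP family, proteins with cysteine-rich DNA-binding domains. It had 13.7, 19.5 and 15.9 CPM in phot HL and 1.05, 1.40 and 1.39 CPM in phot LL, against 1.27, 2.32 and 1.23 CPM in WT HL and 2.65, 3.36 and 1.60 CPM in WT LL. Phot HL was the only group above 4 CPM, and its mean was 10.2 times that of WT HL. The phot LL libraries lay below all WT LL libraries, with a mean of 0.506 times that of WT LL. With TMM factors the fitted WT light difference of this gene was -0.91 (log2), outside the limit of 0.5. Of the 4 CPP genes in the table, 3 were flat in WT, and the other 2 of these had phot light differences of -0.10 and -0.39 on the log2(mean CPM + 1) scale.

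Cre01.g004600 (chromosome 1) belongs to the RWP-RK family, plant and algal DNA-binding proteins that include regulators of nitrogen assimilation and gamete formation. It had 63.3, 74.6 and 62.0 CPM in phot HL and 18.6, 13.9 and 15.1 CPM in phot LL, against 14.6, 14.1 and 15.2 CPM in WT HL and 13.5, 13.2 and 6.36 CPM in WT LL. Here the WT HL libraries also lay above the WT LL libraries, by 1.33-fold in the mean, with WT LL library C below the other 2. Of 11 RWP-RK genes 4 were flat in WT, and the other 3 of these had phot light differences of 0.18, 0.05 and -0.88. A second RWP-RK gene, Cre06.g297150, had a phot light difference of 1.16 but was not flat in WT, where the difference was 1.47.

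Cre03.g152150 (chromosome 3) is of the C2H2 family, proteins that bind DNA through zinc fingers. It had 123, 135 and 130 CPM in phot HL and 61.2, 58.8 and 55.0 CPM in phot LL, against 17.4, 42.5 and 29.4 CPM in WT HL and 26.9, 29.1 and 25.6 CPM in WT LL. All phot libraries lay above all WT libraries, and the 3 WT HL libraries spread by more than 2-fold around the WT LL values. Of 10 C2H2 genes 4 were flat in WT, and this was the only one of them with a positive phot light difference.

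None of the 100 genes was on the study's lists of 73 genes of the carbon concentrating mechanism (CCM, the uptake and enrichment of inorganic carbon around Rubisco), of 55 photoprotection genes or of 17 ranked regulators. Few genes of these lists were flat in WT, namely 12 CCM genes, 10 photoprotection genes and 4 ranked regulators. Among them the largest phot light difference on the log2(mean CPM + 1) scale was 0.32 in the CCM list, 0.33 in the photoprotection list and 0.08 for the ranked regulators. By the test of the averaged genotype difference (described below), 21 of 72 tested CCM genes were higher and 35 lower in phot, 25 of 54 tested photoprotection genes were higher and 18 lower, and 11 of the 17 ranked regulators were higher and 2 lower. Of all tested genes 46% were higher and 33.6% lower.

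The 5 genes with the highest WT level in CPM, which is not corrected for gene length, all had phot HL at 2.12 to 3.50 times phot LL. Cre11.g467689 (chromosome 11) had 3522, 3726 and 4221 CPM in phot HL and 1632, 1917 and 1692 CPM in phot LL, against 4298, 4521 and 4545 CPM in WT HL and 4359, 4476 and 4999 CPM in WT LL. In the mutant its LL mean was 0.379 times that of WT, and its HL libraries were just below those of WT. Cre01.g013700 (chromosome 1) had 289, 304 and 343 CPM in phot HL and 138, 131 and 158 CPM in phot LL, against 643, 672 and 667 CPM in WT HL and 686, 736 and 796 CPM in WT LL. Cre05.g248200 (chromosome 5) had 168, 156 and 175 CPM in phot HL and 47.3, 44.4 and 50.9 CPM in phot LL, against 238, 269 and 256 CPM in WT HL and 259, 294 and 264 CPM in WT LL. For both, phot stayed below WT in each light without overlap.

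The other 2 of these 5 genes had different orders. Cre12.g554800 (chromosome 12) had 2304, 2450 and 2308 CPM in phot HL and 1153, 1077 and 1109 CPM in phot LL, against 897, 834 and 793 CPM in WT HL and 698, 705 and 662 CPM in WT LL. All phot libraries of this gene were above all WT libraries, and WT HL was above WT LL by 1.22-fold without overlap. Cre05.g237450 (chromosome 5) had 287, 332 and 338 CPM in phot HL and 132, 111 and 138 CPM in phot LL, against 244, 696 and 486 CPM in WT HL and 327, 441 and 424 CPM in WT LL. Its flat WT mean covers WT HL libraries that lie both below and above every WT LL library.

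The position of the mutant relative to WT in each light separated the genes into classes (ratio of mean CPM, with a limit of 2-fold). In LL, phot was 2-fold or more below WT for 45 genes (8.48% of all tested genes) and 2-fold or more above WT for 11 (39.8%). In HL, phot was 2-fold or more above WT for 45 genes (26.2%) and 2-fold or more below WT for 8 (10.5%). The median ratio of phot to WT was 0.559 in LL and 1.76 in HL over the 100 genes. These ratios share the libraries that the rule ranked, and the rule favours genes that are low in phot LL or high in phot HL, so nothing is read from the comparison with all genes.

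For 34 genes phot was 2-fold or more below WT in LL and within 2-fold of WT in HL, as for Cre17.g731466 and Cre11.g467689, a class with 2.68% of all tested genes. For 31 genes phot was within 2-fold in LL and 2-fold or more above WT in HL (7.19%), and this class held 6 of the first 12 genes, among them Cre08.g361400 and Cre01.g004600. A further 13 genes were within 2-fold in both lights (39.9%), 11 were above WT in both (18.6%), 8 were below WT in both (5.41%) and 3 were below in LL and above in HL (0.393%). These 3 were Cre08.g368800, Cre04.g213950 and Cre07.g345650. Hence, the rule took genes with phot LL levels that were low, within 2-fold or high relative to WT, but their light differences in phot were not of equal size. On the scale of the rule these were 4.82, 3.18 and 2.58 for the 3 genes just named, in that order. For the 11 genes above WT in both lights they lay between 1.03 and 1.93. Whether the light difference varied with the class was not tested.

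**Figure D2:**
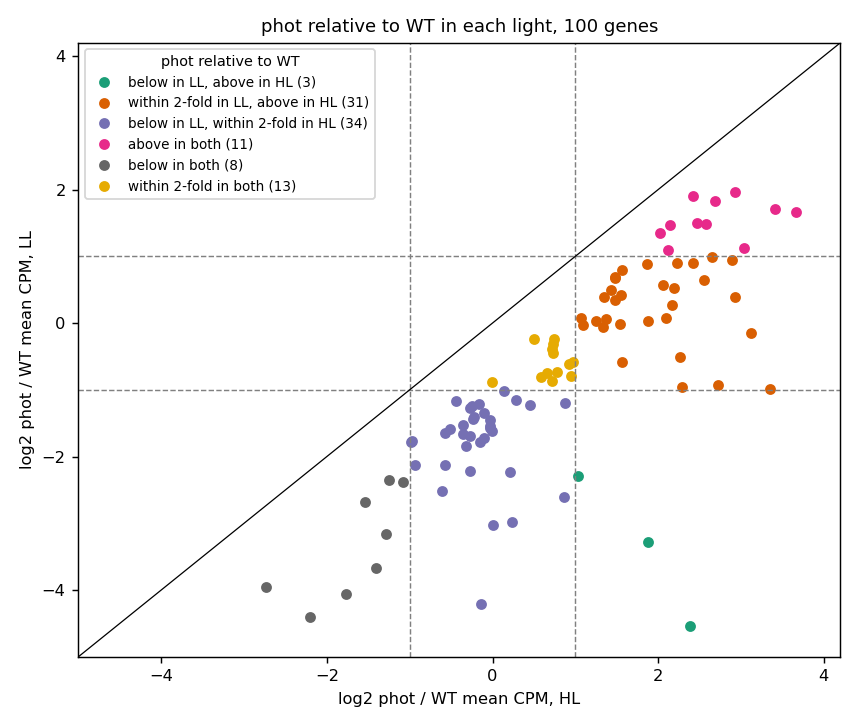
Log2 ratio of phot to WT mean CPM in HL (x axis) and in LL (y axis) for the 100 genes, coloured by class, with dashed lines at 2-fold and the diagonal where both ratios are equal. All points lie below the diagonal, as the rule requires, and the 2 largest classes are 34 genes with phot below WT in LL only and 31 genes with phot above WT in HL only.

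By single libraries, the phot LL libraries lay below all WT LL libraries for 55 genes (15.7% of all tested genes), above them for 23 (69.2%) and overlapped for 22. The phot HL libraries lay above all WT HL libraries for 60 genes (52.3%), below them for 19 (24.9%) and overlapped for 21. Without WT LL library C, the phot LL libraries were below WT for 65 genes instead of 55 (19.3% instead of 15.7% of all tested genes).

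The levels in phot relative to WT depend on the scaling of the libraries, since TMM factors lowered the median averaged genotype difference of all tested genes to 0.15, against 0.59 with library totals (log2). With TMM-scaled CPM, phot LL was 2-fold or more below WT for 59 genes (14.9% of all tested genes), and phot HL was 2-fold or more above WT for 41 (18.9%). The phot LL libraries then lay below all WT LL libraries for 72 genes (29.9%) and above them for 13 (48.6%). By class, 41 genes were then below WT in LL and within 2-fold in HL (5.02%), 29 within 2-fold in LL and above in HL (9.59%), 11 below in both (9.29%), 7 within 2-fold in both (52.5%), 7 below in LL and above in HL (0.54%) and 5 above in both (8.74%). With median-of-ratios factors the phot LL libraries lay above WT LL for 11 genes (40.5%), and 3 genes were above WT in both lights (7.05%). For all 100 genes the phot HL libraries lay above the phot LL libraries with TMM, median-of-ratios and upper-quartile factors. The same held for 38.5%, 35.7% and 31.6% of all tested genes, but the rule selected for it, so nothing is read from this.

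The difference between the genotypes averaged over both lights (phot minus WT) is not one of the light differences used by the rule. It is independent of them only if the groups vary alike, and the rule favours genes low in phot LL or high in phot HL. The minimum of 1 CPM applied to WT alone, and 10 of the genes had a phot LL mean below it. The part of the selection in the calls below was not tested. The averaged difference was tested by the quasi-likelihood method of edgeR, and p-values were adjusted over all 14251 genes after Benjamini and Hochberg. At an adjusted p below 0.05, 35 of the 100 genes were higher and 56 were lower in phot, and 9 were not called. Of all tested genes, 79.6% were called, 46% as higher and 33.6% as lower, so a call in either direction was frequent over the whole table as well. Among the 5131 tested genes that were flat in WT, 43.9% were higher and 36.2% lower. The median difference was -0.39 for the 100 genes and 0.15 for all tested genes (log2, TMM). With library totals these medians were 0.05 and 0.59, with 40 genes higher and 44 lower, so that the sign of the median depended on the scaling. Relative to all tested genes the median was lower by 0.54, a distance that other scaling factors leave nearly unchanged by construction.

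All 6 phot libraries lay below all 6 WT libraries for 14 genes, against 7.32% of all tested genes, and above them for 18 genes, against 32.3% of all tested genes. This order turned with the scaling. TMM-scaled CPM gave 25 genes below (13.9% of all tested genes) and 12 above (18.7%). Median-of-ratios factors gave 28 below (16.3%) and 11 above (15.1%), so the shares of all tested genes moved as well. The largest decrease was that of Cre01.g042502 (chromosome 1), with 2.88, 3.27 and 2.71 CPM in phot HL and 1.18, 0.921 and 0.607 CPM in phot LL, against 19.0, 16.5 and 23.7 CPM in WT HL and 17.4, 16.7 and 7.99 CPM in WT LL. Its averaged difference was -3.77 ± 0.17 (log2, SE of the fit, adjusted p = 7.21e-11). It was followed by the genes Cre03.g155250 with -3.76 ± 0.12 (adjusted p = 1.75e-12) and Cre06.g273100 with -3.37 ± 0.16 (adjusted p = 1.02e-10), whose libraries are given above. For these 3 genes the mean in HL was 0.150, 0.217 and 0.293 times that of WT.

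The largest increase was that of Cre02.g083800 (chromosome 2), with 75.3, 93.6 and 79.9 CPM in phot HL and 22.8, 18.5 and 21.7 CPM in phot LL, against 6.04, 6.98 and 6.58 CPM in WT HL and 7.22, 6.16 and 6.46 CPM in WT LL. The averaged difference was 2.21 ± 0.08 (adjusted p = 1.12e-11), and the WT libraries of both lights overlapped. Cre06.g258226 (chromosome 6) had 21.8, 22.7 and 17.4 CPM in phot HL and 7.89, 6.85 and 8.0 CPM in phot LL, against 1.60, 2.16 and 2.06 CPM in WT HL and 2.62, 2.44 and 1.88 CPM in WT LL, a difference of 2.11 ± 0.09 (adjusted p = 3.99e-11). Cre08.g382950 (chromosome 8) had 107, 101 and 106 CPM in phot HL and 44.0, 29.7 and 38.4 CPM in phot LL, against 13.1, 14 and 14 CPM in WT HL and 9.61, 11.9 and 7.16 CPM in WT LL, a difference of 2.01 ± 0.09 (adjusted p = 5.02e-11). For these 3 genes the mutant was above WT in LL already, by 3.17-, 3.28- and 3.92-fold in the means.

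All 3 transcription factors were higher in phot by this test, by 0.74 ± 0.17 for Cre08.g361400 (adjusted p = 0.00103), 0.92 ± 0.11 for Cre01.g004600 (adjusted p = 2.57e-06) and 1.17 ± 0.14 for Cre03.g152150 (adjusted p = 1.71e-06). On the full list, 205 of 383 tested transcription factors were higher and 81 were lower, with a median of 0.29, against 46% higher, 33.6% lower and a median of 0.15 for all tested genes. The top gene Cre08.g368800 was lower in phot on average, by -1.51 ± 0.12 (adjusted p = 4.06e-08), which combines a level below WT in LL with one above WT in HL. The averaged difference of Cre06.g302050, 0.45 ± 0.13 (adjusted p = 0.00593), missed the threshold when phot HL library A, phot LL library A or WT HL library B was left out, at 0.31, 0.25 and 0.27.

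**Figure D3:**
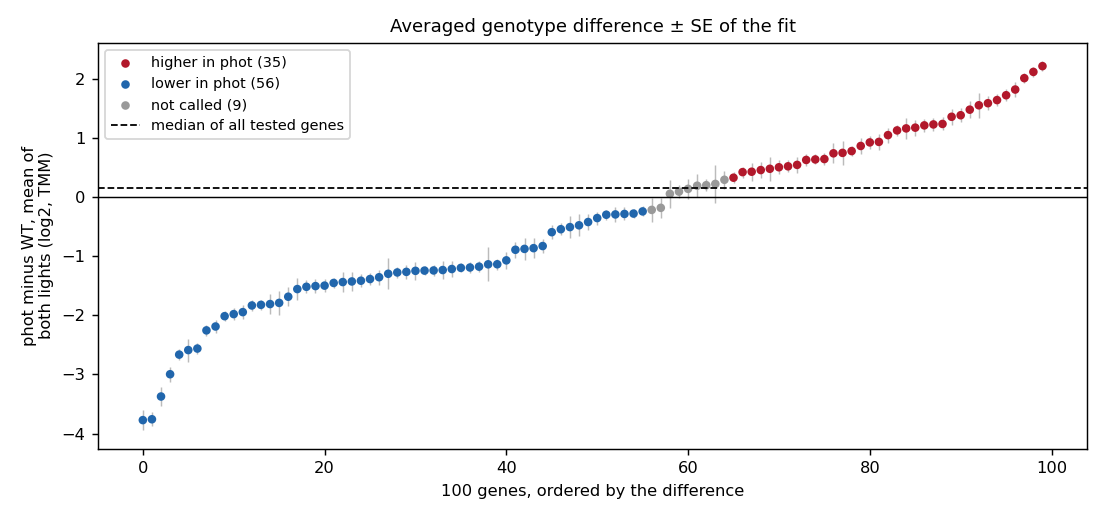
Averaged genotype difference (phot minus WT, log2, TMM) of the 100 genes in rising order (points) with the standard error of the fit (bars), coloured by the call of edgeR's quasi-likelihood test at an adjusted p below 0.05, and the median of all tested genes (dashed line). The differences run between -3.77 and 2.21, with 56 genes lower, 35 higher and 9 not called.

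How flat the genes are in WT was itself a matter of scaling. On the scale of the rule their WT light difference had a median of 0.09. In the fit with TMM factors the median was -0.18 for the 100 genes, against 0.05 for all tested genes and -0.18 for all genes flat in WT by the rule. The difference was within 0.5 of 0 for 76 genes, -0.5 or lower for 24 and 0.5 or higher for none. With TMM-scaled CPM, the WT HL libraries lay below the WT LL libraries for 30 of the 100 genes and above them for 1, against 34.4% and 38.8% of all tested genes. The light difference in phot had a fitted median of 1.47 with TMM factors, against 0.03 for all tested genes. It was positive for all 100 genes, but the rule selected for it.

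The 4 genes with WT HL below WT LL at library totals were Cre07.g345650, Cre01.g013700, Cre17.g719950 and Cre01.g007400, named here because their WT libraries did not overlap. Cre17.g719950 had 10.8, 2.33 and 9.13 CPM in phot HL and 1.18, 1.40 and 1.36 CPM in phot LL, against 1.67, 1.77 and 1.13 CPM in WT HL and 2.65, 2.64 and 2.36 CPM in WT LL. Its WT mean in HL was 0.598 times that in LL, the lowest WT ratio of the 100 genes, and phot HL library B was far below the other 2. Cre01.g007400 had 11.6, 9.79 and 9.92 CPM in phot HL and 1.85, 2.54 and 2.89 CPM in phot LL, against 2.80, 1.80 and 1.93 CPM in WT HL and 4.13, 3.2 and 3.09 CPM in WT LL. At the other end, Cre11.g479950 had a WT ratio of 1.51, with 3.60, 2.93 and 3.72 CPM in WT HL and 2.47, 2.70 and 1.60 CPM in WT LL.

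**Figure D4:**
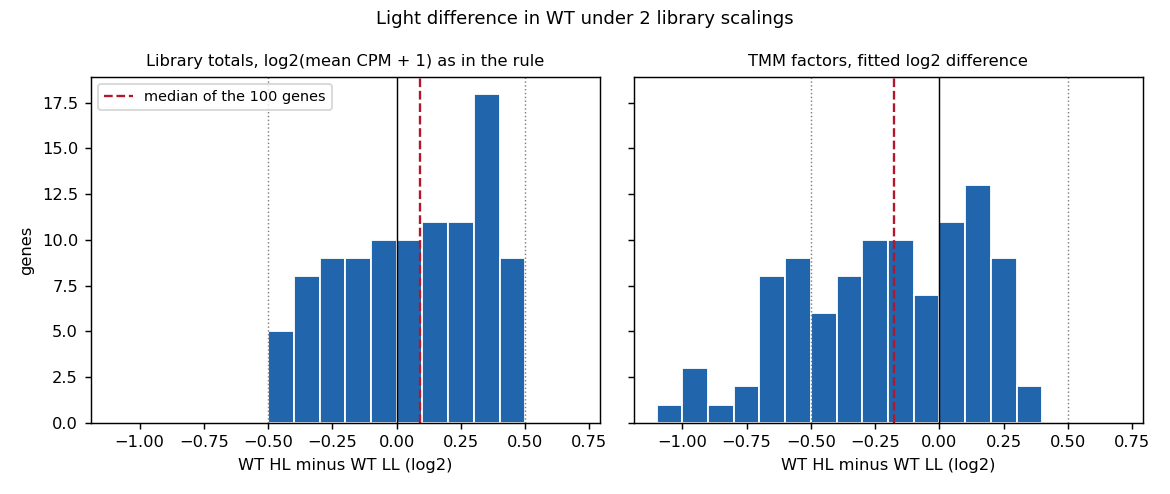
Number of genes by their light difference in WT (HL minus LL, log2), for library totals on the scale of the rule (left) and for the fit with TMM factors (right), with the median of the 100 genes (dashed) and the limit of 0.5 in either direction (dotted). With library totals all 100 genes lie within the limit by construction and the median is 0.09, whereas with TMM factors the median is -0.18 and 24 genes lie at -0.5 or lower.

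The WT HL libraries differed among themselves for part of the genes. WT HL library B was at least 1.5 times library A for 32 of the 100 genes, and the reverse held for 1 gene, against 22.1% and 4.58% of all tested genes. Without WT HL library A, the WT HL libraries lay above the WT LL libraries for 35 genes, and without library B for 26 genes, instead of 19. Of all tested genes these were 52.8% and 47.4%, instead of 46.3%. Without library B they lay below WT LL for 15 genes, and without WT LL library C for 22 genes, instead of 4. Of all tested genes these were 28.4% and 31.1%, instead of 22.6%. Leaving out a library can only raise such counts, for any gene.

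The 100 genes lay on all 17 chromosomes, with 12 on chromosome 12, 10 each on chromosomes 2 and 6 and 9 on chromosome 17. Of the 5132 genes flat in WT, chromosomes 12, 2, 6 and 17 held 524, 451, 435 and 329. In the RefSeq gene order, 4 pairs were direct neighbours and 9 pairs had at most 5 genes between them. The same rule with the genotypes exchanged gave 3 and 7 such pairs among its 100 genes. Both neighbouring pairs of chromosome 14, Cre14.g630775 with Cre14.g630787 and Cre14.g630835 with Cre14.g630847, lay within a stretch of 7 genes. For all 4 of these genes the phot LL mean was at most 0.540 times the WT LL mean, and the phot HL mean was 0.779 to 0.998 times that of WT HL. As an example, Cre14.g630787 had 15.8, 15.5 and 15.9 CPM in phot HL and 6.01, 7.59 and 7.25 CPM in phot LL, against 15.2, 24.2 and 21.2 CPM in WT HL and 21.1, 20.3 and 18.7 CPM in WT LL. The gene Cre14.g630835 had 59.2, 69.5 and 63.5 CPM in phot HL and 33.2, 26.9 and 31.7 CPM in phot LL, against 46.5, 108 and 78.6 CPM in WT HL and 67.9, 84.4 and 69.8 CPM in WT LL.

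The 3 genes in between were not selected. Cre14.g630799 and Cre14.g630811 had light differences of 1.59 and 1.01 in phot but also of 0.83 and 1.34 in WT, and Cre14.g630823 had 0.14 in phot and 0.56 in WT (log2(mean CPM + 1), as in the rule). Thus, a light difference over 1 in phot was found for 6 of the 7 genes of this stretch, and a flat WT mean for 4. These 4 are the selected genes, which were chosen on both values and bound the stretch. Genes between other selected pairs were looked at only in the following stretches, where their phot light differences were lower. Between Cre06.g258226 and Cre06.g258300, Cre06.g258250 had 0.45. Between Cre10.g456800 and Cre10.g456950, Cre10.g456851 had -0.61 and Cre10.g456900 had 0.36.

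In the neighbouring pair on chromosome 6, Cre06.g298880 had 12.1, 10.9 and 10.3 CPM in phot HL and 4.06, 3.54 and 3.11 CPM in phot LL, against 12.9, 12.3 and 14.1 CPM in WT HL and 10.1, 11.6 and 7.33 CPM in WT LL. Its neighbour Cre06.g298911 had 13.1, 10.8 and 10.2 CPM in phot HL and 4.38, 4.39 and 4.54 CPM in phot LL, against 13.1, 11.2 and 14 CPM in WT HL and 11.2, 11.5 and 8.31 CPM in WT LL. Both were low in phot LL alone, without overlap with the other 3 groups. On chromosome 2, Cre02.g119000 had 16.9, 19.5 and 16.7 CPM in phot HL and 7.45, 6.45 and 4.89 CPM in phot LL, against 6.63, 13.8 and 10.7 CPM in WT HL and 10.5, 9.95 and 10.6 CPM in WT LL. Its neighbour Cre02.g119050 had 12.9, 15.7 and 15.3 CPM in phot HL and 5.24, 6.19 and 5.89 CPM in phot LL, against 6.08, 19.1 and 14.5 CPM in WT HL and 11.3, 13.3 and 10.5 CPM in WT LL. The phot HL libraries of Cre02.g119000 lay above WT HL, while those of Cre02.g119050 overlapped with it. In both genes of this pair WT HL library A was low and library B high, as for Cre14.g630835.

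With the genotypes exchanged, 8255 genes were flat in phot and the 100 of these with the largest light difference in WT shared no gene with the 100 described here. The phot light difference of the genes described here was 1.02 to 4.82 (median 1.32), against a WT light difference of 1.97 to 3.64 (median 2.24) in the exchanged list. A light difference over 1 was found in phot for 108 of 5132 genes flat in WT (2.10%), and in WT for 1213 of 8255 genes flat in phot (14.7%). With TMM factors these shares were 2.05% and 9.03%. The median ratio of phot to WT was 1.76 in HL and 0.559 in LL for the genes described here, against 0.481 in HL and 2.20 in LL in the exchanged list. By the averaged test, 35 genes were higher and 56 lower in phot with a median of -0.39, against 25 higher and 58 lower with a median of -0.40 in the exchanged list. Both lists come from the same 12 libraries.

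At the limit of the rule the light difference in phot was 1.02 for both the last gene taken and the first gene left out. The last one taken, Cre03.g211409 (chromosome 3), had 11.1, 11.9 and 13.5 CPM in phot HL and 5.31, 4.97 and 6.11 CPM in phot LL, against 7.10, 16.4 and 13.8 CPM in WT HL and 14.5, 17.4 and 16.0 CPM in WT LL. The first one left out, Cre16.g672650, had means of 365 CPM in phot HL and 180 CPM in phot LL, against 797 CPM in WT HL and 792 CPM in WT LL. In all, 10 of the genes had a phot LL mean below 1 CPM, and 2 of them, Cre02.g142750 and Cre13.g579976, had a phot LL library with 3 reads, the lowest count of any of the 100 genes.

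The list itself changed with its rule. The same rule took 71 of the 100 genes again with TMM factors, where 18 were no longer flat in WT and 11 fell below the limit of 100. It took 54 again with median-of-ratios factors and 46 with upper-quartile factors. Leaving out 1 library at a time kept 87 to 97 genes, and 56 were kept in all 12 such lists. Under the 3 other scalings and all 12 omissions 32 genes were kept throughout, among them 6 of the first 12, namely Cre08.g368800, Cre04.g213950, Cre17.g745447, Cre06.g299900, Cre06.g273100 and Cre17.g731466. Of the transcription factors only Cre03.g152150 was among the 32.

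**Figure D5:**
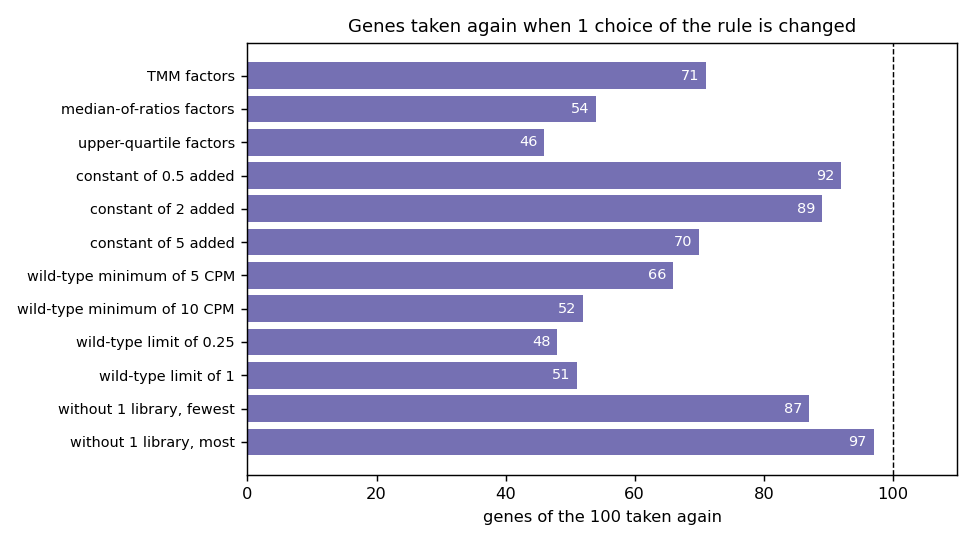
Number of the 100 genes taken again (bars, also printed) when 1 choice of the rule was changed, with the scaling factors, the added constant, the minimum WT mean, the limit on the WT difference, and the fewest and most genes when 1 library was left out. The scaling and the 2 WT criteria changed the list most, down to 46 genes with upper-quartile factors and 48 with a WT limit of 0.25.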

How the data were processed

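Stranded mRNA libraries of 12 samples (4 groups of 3) were sequenced. The authors aligned the reads with STAR to the reference transcriptome of assembly version 5 (STAR version 2.5.3a per the submitters' processing notes) and counted them with HTSeq-count in its reverse-strand setting. The version of HTSeq-count is not given in the sources used here. The deposited values are raw counts per gene, without normalization by the authors. The table held 17741 genes, 719 of them without a count. Column names gave the group but not the replicate number, so the letters A, B and C follow column order. All 12 columns were used and 0 were left out.

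The rule used library totals. The members and the gene lists were chosen with earlier results of these data known, and the lists come from the study's supplement. Tests used edgeR 4.0.16 and limma 3.58.1 in R 4.3.3, with TMM factors, 1 coefficient per group and the study's filter of more than 1 CPM in at least 4 libraries, which left 14251 genes. All 100 members passed this filter. Alternatives were library totals, median-of-ratios and upper-quartile factors, no filter, DESeq2 1.42.0, limma-voom and leaving out each library. On simulated data for the averaged genotype difference, 99% of 199 changed genes among 14099 were recovered with 7 false calls, a far smaller share of changed genes than in the real data.

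Genes were named by rule, namely the 12 with the largest light difference in phot, those at the limit, those on a list, the 5 with the highest WT CPM, the 3 highest and 3 lowest in the averaged test without overlap between genotypes, and neighbours. Other genes were named after their values were seen. Chromosomes and gene order came from RefSeq (assembly Chlamydomonas_reinhardtii_v5.5), where all 100 genes were matched. It paired them with no symbols, and promoter motifs were not searched here. The labels give replicate numbers and do not name cultures, and the paper states 3 biological replicates per condition. Counting precision makes no allowance for PCR duplicates, which were not removed by molecular identifiers.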

Additional observations from a re-analysis of the deposited data

How the results depend on the processing

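The rule took again 54 genes with median-of-ratios factors, 46 with upper-quartile factors, 66 and 52 with a WT minimum of 5 and 10 CPM, and 48 and 51 with a WT limit of 0.25 and 1, and between 87 and 97 without 1 library. The median WT light difference of -0.18 with TMM factors was 0.11 with library totals, and between -0.52 and -0.16 with 1 library left out (the extremes are library B of WT HL and of WT LL). Leaving out any phot HL library, which holds no WT counts, also moved it, to -0.36. The median of all tested genes then moved from 0.05 to -0.14, and the distance between the 2 medians stayed at -0.22. The median phot light difference was 1.35 with upper-quartile factors, against 1.47. In the averaged test 84 to 91 genes were called under every alternative run. For the averaged difference of the 36 named genes under 3 other scalings and 12 omissions, 523 values kept direction and call, 14 missed the threshold (in Cre06.g302050, Cre02.g119000, Cre02.g119050 and Cre01.g007400), 1 newly passed it, and 2 changed sign. Cre02.g119000 had 0.024 with library totals. With 1 library left out, Cre17.g719950 lay between -0.078 (without phot HL library A) and 0.34 (without phot HL library B, where it passed). The counts against WT under other scalings and with library C of WT LL or library A or B of WT HL left out were added after seeing the data. No paired analysis was possible because the columns carry no replicate numbers. Depth limits phot LL most, where 12 genes averaged under 30 reads.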
